A study of Mus musculus with 12 samples.

Results

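The genes described here are 9 hepatokines and metabolic secreted factors, that is, proteins the liver releases into the blood: Fgf21, Igfbp1, Igfbp2, Angptl4, Angptl8, Lect2, Fetub, Ahsg and Rbp4. They were taken by name from a table of 24527 gene symbols, and all 9 were found in it and passed the filter on low counts, as did 13204 genes in all. Liver messenger RNA had been sequenced in 12 mice aged 39 weeks, all bred from CF1 females, an outbred stock, and B6SJL males, which are hybrids. Conception was natural or by in vitro fertilization (IVF, fertilization of the egg outside the body) with a protocol of the Jackson Laboratory, and females and males of both kinds gave 4 groups of 3 libraries: natural females, IVF females, natural males and IVF males. No group carried a transgene, deletion or drug treatment in the labels. The comparisons ask whether IVF changes adult liver expression of these genes in either sex, and whether the sexes differ. Whether the 3 libraries of a group came from separate litters, and the feeding state and hour of collection, are not given in the sources used here, so the p-values measure only the spread between these libraries.

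Library totals ran from 6826534 to 27832271 counts, and the lowest were those of IVF female replicate 1 and natural female replicate 2 (8056230 counts). Both are circled in the plot of the members by library, and some of the results that rest on them are given with and without them. Levels are CPM, counts scaled to the library total and adjusted by edgeR's trimmed mean of M-values (TMM). The 9 genes together took from 0.649% to 1.23% of a library's counts. As a check of the tissue label, 11 hepatocyte markers summed to 95470 to 132794 CPM, while 8 adipocyte markers summed to 8.87 to 27.7 CPM, with the fat cell hormones Lep and Retn at 0 in every group.

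Hepatokines carry the liver's metabolic state to other organs. Fgf21 is a hormone of fasting, of PPAR-alpha activation and of amino acid shortage, and acts through FGF receptors with the coreceptor Klb. Igfbp1 and Igfbp2 bind insulin-like growth factors, and Igfbp1 transcription is switched off by insulin through FOXO1. Angptl4 and Angptl8 both limit lipoprotein lipase, the enzyme that releases fatty acids from circulating triglycerides, Angptl4 mainly in fasting and Angptl8 after feeding. Ahsg (fetuin-A) and Fetub (fetuin-B) are cystatin-type plasma proteins, the former a carrier of calcium phosphate and an inhibitor of the insulin receptor, the latter an inhibitor of the protease that hardens the egg coat. Lect2 is a chemotactic plasma protein that has been linked to insulin resistance in muscle, and Rbp4 carries retinol from liver to tissues.

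Stretches of the promoters of Igfbp1, Fgf21 and Angptl8 are shown because, among the 8 members with an entry in the RefSeq promoter table (all but Angptl4), these 3 had the widest SD of log2 CPM between mice of a group. Each covers the 140 bases from 150 to 11 bases before the RefSeq start, read 5′ to 3′ on the gene's strand in GRCm38.p6: chr11:7197637-7197776 (plus strand) for Igfbp1, chr7:45615501-45615640 (minus strand) for Fgf21 and chr9:21835360-21835499 (plus strand) for Angptl8. Capitals mark CAAAACAA in Igfbp1, ATTGCATCA and CACGTG in Fgf21, and TGATGCAAT in Angptl8.
Igfbp1: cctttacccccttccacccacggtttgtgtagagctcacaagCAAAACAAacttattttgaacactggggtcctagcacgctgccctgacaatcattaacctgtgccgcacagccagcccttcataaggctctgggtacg
Fgf21: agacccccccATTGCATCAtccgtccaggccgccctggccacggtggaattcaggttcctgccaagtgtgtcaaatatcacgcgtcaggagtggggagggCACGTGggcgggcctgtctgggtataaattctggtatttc
Angptl8: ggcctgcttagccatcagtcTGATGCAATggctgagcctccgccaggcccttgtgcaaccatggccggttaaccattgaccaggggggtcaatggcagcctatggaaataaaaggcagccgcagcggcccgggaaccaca
CAAAACAA, known from the insulin response element of Igfbp1, began 108 bases before that start and was held by 1.01% of 32851 RefSeq promoter windows of the same length. TGATGCAAT, known as a site type that ATF4 and C/EBP factors share, was held by 0.113% of windows. Among the members it stood in Angptl8, 130 bases before the start, and on the opposite strand in Fgf21, as ATTGCATCA, 140 bases before. CACGTG, the palindromic E-box, stood 50 bases before the Fgf21 start and also in Igfbp2, and 3.96% of windows held it.

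In all, 20 letter patterns were searched on both strands in the windows of 8 members, which had 11 promoter entries. Besides those above, patterns found in members were the short form of the HNF1 site in Igfbp1 (0.259% of all windows), ATTGCNNAA in Ahsg (1.03%), TTGATC in Lect2 (3.24%), TATAAA in Fetub, Fgf21 and Rbp4 (7.24%) and, overlapping it, TATAA in the same 3 genes (13.6%). TGTTCT stood in Ahsg and Fetub (9.02%), GATTA in Ahsg (11.1%), TTNNGNAA in Ahsg, Angptl8, Igfbp2 and Rbp4 (21.7%), GGTCA in Angptl8, Igfbp2 and Rbp4 (21.8%) and GGCGG in 6 members (38.5%). Patterns not in these windows were TGTTTAC (1.69% of all windows), the glucocorticoid response palindrome (0.00609%), which contains TGTTCT, the long form of the HNF1 site (0.00913%), which contains the short one, TGACGTCA (1.25%), AGGTCA (8.07%), which contains GGTCA, its direct repeat with 1 base between (0.0304%), and TTCNNNGAA (3.83%). A match describes letters only, and no binding was measured in these livers.

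Per kilobase of exon, Ahsg was the most abundant member, with a mean of 3205 CPM per kb over the 12 libraries, and Rbp4 was next at 1415. No library of Rbp4, whose highest was 1940 CPM per kb, reached the lowest of Ahsg at 2208. Fetub (202), Igfbp2 (130) and Lect2 (109) followed in that order of mean CPM per kb, and their libraries overlapped: 143 to 258 for Fetub, 69.3 to 204 for Igfbp2 and 70.7 to 171 for Lect2. Angptl8 (mean 46.3) and Angptl4 (24.4) also overlapped each other, with Angptl8 at 13.0 to 95.9 and Angptl4 at 6.37 to 72.9 CPM per kb. Igfbp1 averaged 9.29 and Fgf21 2.65 CPM per kb. Fgf21 was thus the only member near the middle of the transcriptome: 48.4% of tested genes with a length lay below it, against 76.4% below Igfbp1 and 99.8% below Ahsg.

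**Figure D1:**
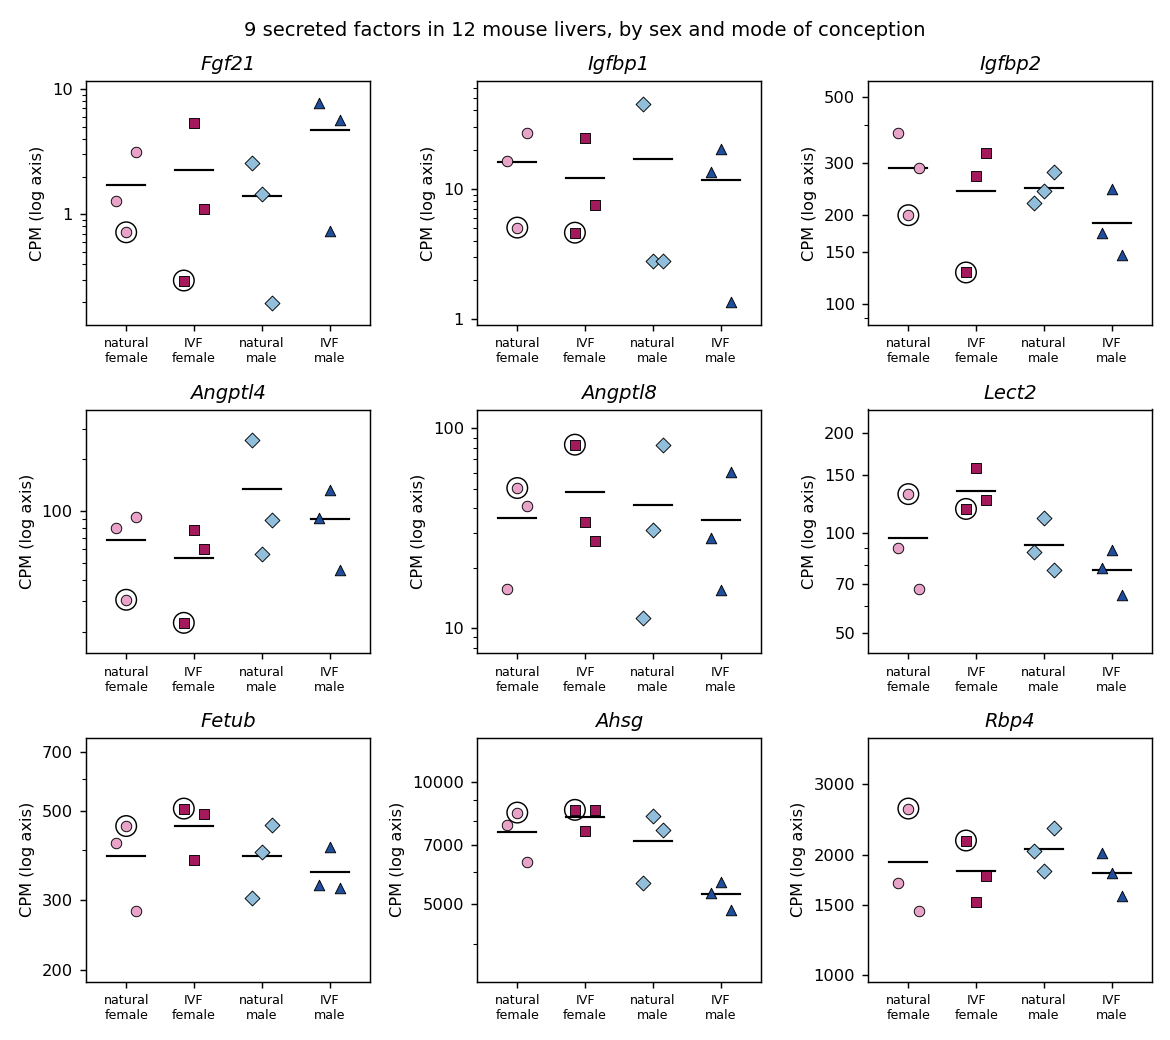
Level of each of the 9 genes in every library, in TMM-scaled CPM on log axes that differ between panels; each symbol is 1 mouse, the bar is the group mean of 3 libraries, and circles mark the 2 libraries of smallest total. The groups overlap for nearly every gene, Fgf21 and Igfbp1 scatter the most, and for Lect2 and Ahsg the 3 IVF males lie below the 3 IVF females.

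No member was called between IVF and natural mice in either sex. At a Benjamini-Hochberg adjusted p under 0.05 in edgeR's quasi-likelihood test, 0 of 9 members were called in females, where 0% of all 13204 genes were, and 0 of 9 in males, where 0.00757% of all genes (a single gene) were. At an unadjusted p under 0.05 the count was also 0 of 9 in both sexes, against 3.7% of all genes in females and 2.69% in males. DESeq2 called 0 of 9 too, against 0.0329% of all genes in females and 0.0379% in males, although it gave Ahsg an unadjusted p of 0.0163 in males, and limma voom called 0 of 9. For the average IVF effect the count was again 0 of 9, against 0.00757% of all genes by edgeR and 0.0303% by DESeq2. For the difference of the IVF effect between the sexes it was 0 of 9, against 0% by edgeR (3.87% at an unadjusted p under 0.05, with 0 of 9 members) and 0.0683% by DESeq2. For all 9 members the libraries of IVF and natural mice overlapped in both sexes, whereas they did not overlap for 7.42% of all genes in females and 8.91% in males. The median log2 fold change of the members was 0.12 in females and -0.26 in males, against -0.01 and 0.01 over all genes. In males 8 of 9 members, all but Fgf21, lay below 0. In females 5 lay above 0 and 4 below.

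Fgf21 (chr7:45613886-45615490, minus strand) was low and uneven. In replicate order it stood at 1.28, 0.719 and 3.13 CPM in natural females, 0.297, 5.36 and 1.11 in IVF females, 2.56, 1.45 and 0.198 in natural males and 7.69, 0.738 and 5.66 in IVF males. The lowest values rest on 2 counts in IVF female replicate 1 and 5 counts in natural male replicate 3. IVF male replicates 1 and 3 lay above all 3 natural males, and replicate 2 lay among them. The fold change was 3.35 in males (95% confidence interval 0.714 to 15.7) and 1.37 in females (0.292 to 6.48), so neither interval excludes equality nor a several-fold change. Leaving out single libraries moved the log2 fold change in males between 1.19 and 2.53. The difference of the IVF effect between the sexes was 1.28 ± 1.44 (SE) on the log2 scale, with an edgeR p of 0.39 and an adjusted p of 1.

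The FGF21 receptors and transcriptional regulators gave no call for IVF either. Of 11 tested genes in this list, which holds Klb, the FGF receptors, Ppara, Atf4 and Mlxipl, 0 were called and 1 had an unadjusted p under 0.05 in each sex. In both sexes that gene was Mlxipl, which encodes the carbohydrate sensor ChREBP, at a log2 fold change of -0.57 ± 0.23 (SE) in females and 0.57 ± 0.23 in males. The difference between the sexes was 1.13 ± 0.33, with an edgeR p of 0.00517 and an adjusted p of 1.

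Igfbp1 (chr11:7197782-7202546, plus strand) had the widest spread between mice of a group. Its levels in replicate order were 16.4, 5.03 and 26.8 CPM in natural females, 4.60, 24.4 and 7.52 in IVF females, 44.9, 2.80 and 2.81 in natural males and 13.5, 20.1 and 1.35 in IVF males. Natural male replicate 1 lay far above its group mates, and every group held both high and low mice. The IVF fold change was 0.765 in females (95% confidence interval 0.139 to 4.21) and 0.690 in males (0.126 to 3.79). Without natural male replicate 1 the log2 fold change in males turned from -0.53 to 2.05.

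Igfbp2 (chr1:72824503-72852474, plus strand), the more abundant of the pair, varied much less. It stood at 376, 199.7 and 288 CPM in natural females, 128, 269 and 323 in IVF females, 219, 241 and 279.9 in natural males and 174, 244 and 147 in IVF males. The lowest females were the 2 libraries of smallest total, and IVF male replicate 3 was the lowest male. The IVF fold change was 0.834 in females (0.501 to 1.39) and 0.762 in males (0.457 to 1.27), so that a decrease by more than 2-fold lies outside the interval in females and just inside it in males. Of 13 other tested genes of the insulin-like growth factor axis, 0 were called for IVF. The smallest p in males was that of Igf1r, the receptor of these growth factors, with a log2 value of -0.92 ± 0.28 (SE; edgeR adjusted p 1).

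Angptl4 (chr17:33773750-33781830, minus strand) stood at 80.1, 30.7 and 92.9 CPM in natural females, 22.6, 77.8 and 60.1 in IVF females, 258, 56.3 and 88.7 in natural males and 91.7, 132 and 45.6 in IVF males. Its highest library was natural male replicate 1, as for Igfbp1, and its 2 lowest were the circled female libraries. The IVF fold change was 0.790 in females (0.306 to 2.04) and 0.668 in males (0.259 to 1.72), and without natural male replicate 1 the log2 fold change in males turned from -0.58 to 0.31. Its average difference between males and females was the largest among the members in size, at a log2 value of 0.86 ± 0.44 (SE), with an edgeR adjusted p of 0.265.

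Angptl8 (chr9:21835510-21837347, plus strand) tended to run against Angptl4 across mice, though not between all of them. It stood at 15.8, 50.3 and 41.0 CPM in natural females, 83.0, 34.2 and 27.2 in IVF females, 11.2, 30.9 and 82.4 in natural males and 28.3, 15.4 and 60.4 in IVF males. Natural male replicate 1, the highest mouse for Igfbp1 and Angptl4, was the lowest for Angptl8, and IVF female replicate 1 was the highest. The IVF fold change was 1.34 in females (0.454 to 3.98) and 0.835 in males (0.284 to 2.46). Angptl8 lies inside Dock6 on the opposite strand with 0 shared exon bases, and Dock6 had group means of 11.2 to 13.9 CPM. Whether counting used strand is not given in the sources used here. Among 12 other tested genes of the angiopoietin-like family and the lipase system, 0 were called for IVF. The smallest p in females belonged to Lpl, lipoprotein lipase itself, with a log2 value of 3.10 ± 1.05 (SE; edgeR adjusted p 1). Its IVF females were spread from 10.4 to 276 CPM (mean 104 ± 149 SD), against 12.4 ± 7.45 (SD, n = 3) in natural females, and the groups overlapped.

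Ahsg (chr16:22891277-22899449, plus strand) stood at 7811, 8394 and 6351 CPM in natural females, 8523, 7553 and 8501 in IVF females, 5631, 8242 and 7609 in natural males and 5346, 5674 and 4851 in IVF males. The IVF males were low as a group, with natural male replicate 1 between them. The IVF fold change in males was 0.739 (0.524 to 1.04), with an edgeR p of 0.0791 and an adjusted p of 1, and in females it was 1.09 (0.773 to 1.54). Fetub (chr16:22918334-22939778, plus strand), which starts 18884 bases beyond the end of Ahsg, stood at 416, 458 and 281 CPM in natural females, 507, 377 and 492 in IVF females, 303, 396 and 462 in natural males and 328, 406 and 321 in IVF males. All 4 groups of Fetub overlapped, and its IVF fold changes were 1.19 (0.830 to 1.71) in females and 0.909 (0.634 to 1.30) in males. Of 2197 exon bases of Ahsg, 62 are shared with the antisense transcript Gm30505.

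Lect2 (chr13:56542464-56548502, minus strand) stood at 90.0, 131 and 67.8 CPM in natural females, 118, 157 and 126 in IVF females, 87.5, 111 and 77.6 in natural males and 78.4, 88.8 and 65.0 in IVF males. The 3 IVF females lay above 2 of the natural females, and only natural female replicate 2, a library of small total, reached into their range. The IVF fold change was 1.39 in females (0.953 to 2.03; edgeR p 0.0813, adjusted p 1) and 0.843 in males (0.578 to 1.23). Without both libraries of smallest total, an alternative chosen after the data were seen, the log2 fold change in females moved from 0.48 to 0.86. The edgeR p was then 0.00447 and the adjusted p 0.962. Those libraries are the lowest IVF female and the highest natural female for Lect2. Leaving them out therefore fixed a wider gap in females in advance, which also enters the difference between the sexes. The difference of the IVF effect between the sexes was -0.72 ± 0.35 (SE) on the log2 scale (edgeR p 0.0631, adjusted p 1), and without those libraries -1.11 (edgeR p 0.00434, adjusted p 0.997).

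Rbp4 (chr19:38116629-38125281, minus strand) was the member with the flattest means. It stood at 1697, 2606 and 1445 CPM in natural females, 2169, 1527 and 1773 in IVF females, 2047, 1818 and 2331 in natural males and 2017, 1802 and 1576 in IVF males. The groups overlapped throughout, and the average IVF effect was a fold change of 0.910 (0.693 to 1.19). Of 10 tested genes for retinol transport and storage, 0 were called for IVF in either sex.

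**Figure D2:**
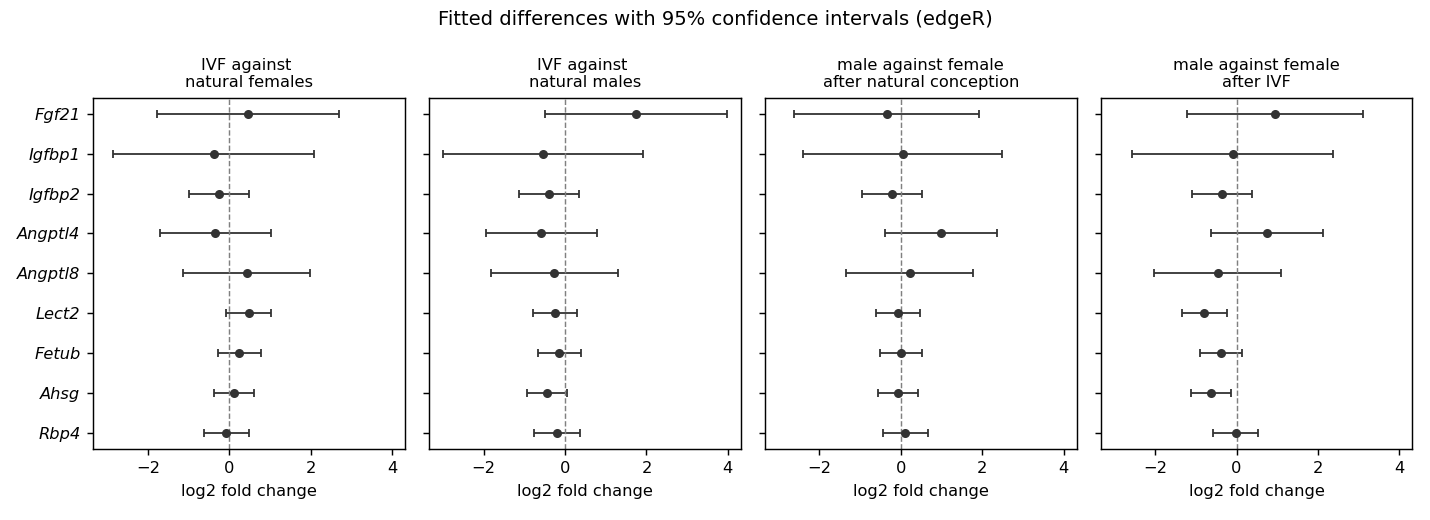
Fitted log2 fold changes of the 9 genes in 4 comparisons, with points for the edgeR estimate and bars for the 95% confidence interval. The bars for Fgf21, Igfbp1, Angptl4 and Angptl8 are several times as long as those for Lect2, Fetub, Ahsg and Rbp4, and the interval lies wholly below 0 only for Lect2 and Ahsg in IVF males against IVF females.

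Between the sexes, Lect2 and Ahsg were lower in IVF males than in IVF females, short of the threshold over all genes. Lect2 averaged 77.4 ± 11.9 CPM (SD, n = 3) in IVF males and 134 ± 20.7 in IVF females, a fold change of 0.579 (95% confidence interval 0.397 to 0.846; edgeR p 0.00856, adjusted p 0.152). Ahsg averaged 5290.3 ± 415 CPM (SD, n = 3) in IVF males and 8193 ± 554 in IVF females, a fold change of 0.646 (0.458 to 0.911; edgeR p 0.0172, adjusted p 0.212). For both genes all 3 IVF males lay below all 3 IVF females. In one direction or the other, the groups did not overlap for 21.8% of all genes. The 2 of 9 members are near that share, so such a gap is not particular to the members. Among the members 2 of 9 had an unadjusted p under 0.05, against 14.9% of all genes, and 0 of 9 were called, against 2.19%. DESeq2 called Ahsg here (log2 fold change -0.65, adjusted p 0.0139) among the 5.47% of genes it called, and gave Lect2 an adjusted p of 0.0545. Over 22 alternatives both log2 fold changes stayed negative, with adjusted p from 0.0545 to 0.431 for Lect2 and from 0.0139 to 0.495 for Ahsg. The titles of IVF female replicate 1 and IVF male replicate 2 share the first part of a number that the labels do not explain, so whether these mice are related is not known. Leaving out single libraries, those included, gave log2 fold changes of -0.90 to -0.65 for Lect2 and -0.69 to -0.57 for Ahsg.

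After natural conception both genes overlapped between the sexes. Males stood at a fold change of 0.955 for Lect2 (0.656 to 1.39) and 0.952 for Ahsg (0.676 to 1.34), and all 9 members overlapped between the sexes, against 20% of all genes whose groups did not overlap. By edgeR 0 of 9 were called, against 1.77% of all genes, and by DESeq2 0 of 9, against 5.14%, and in edgeR 0 had an unadjusted p under 0.05. Lect2 turned to a log2 fold change of 0.21 without both libraries of smallest total. The sex gap after IVF minus that after natural conception is the same contrast as the difference of the IVF effect, at -0.72 for Lect2 and, for Ahsg, -0.56 ± 0.32 (SE) on the log2 scale (edgeR p 0.107, adjusted p 1), so a difference between the 2 gaps was not shown.

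Averaged over both modes of conception, males were at a log2 fold change of -0.43 ± 0.18 (SE) for Lect2 (edgeR adjusted p 0.168) and -0.35 ± 0.16 for Ahsg (edgeR adjusted p 0.212), and 0 of 9 members were called, against 7.2% of all genes. Scaling by library size alone, which moved the median of all genes in this comparison from -0.01 to -0.22, called both: Lect2 at -0.63 (edgeR adjusted p 0.0353) and Ahsg at -0.55 (0.0374), among 12.3% of all genes. DESeq2 called Ahsg alone (-0.36, adjusted p 0.0482), among 12.8%.

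In IVF males against IVF females most markers of several cell types, Kupffer, stellate and endothelial cells among them, lay below 0 beside these 2 genes. Hepatocyte markers went both ways. Summed CPM of 10 Kupffer cell markers (Kupffer cells are the resident macrophages of the liver) ran from 206 to 312 in IVF males, 415 to 613 in IVF females, 384 to 422 in natural males and 403 to 521 in natural females. In IVF males against IVF females all 10 were below 0, and edgeR called 3 of them, Vsig4, Clec4f and C1qb, at adjusted p of 0.0039, 0.0215 and 0.0433, against 2.19% of all genes called in that comparison. No marker of this list was at 0 in any group. The 11 tested hepatocyte markers summed to 95470 to 114168 CPM in IVF males and 120647 to 132794 in IVF females. Much of that sum was albumin (Alb), at a mean of 49062 CPM in IVF males and 76977.5 in IVF females. By gene, 6 hepatocyte markers lay above 0 and 5 below (median log2 fold change 0.17, all genes 0.01). Stellate cell markers summed to 287 to 352 CPM in IVF males and 478 to 551 in IVF females. Of these, 8 of 10 lay below 0, 5 at an unadjusted edgeR p under 0.05 and 0 called. The 10 sinusoidal endothelial markers summed to 249.6 to 288 CPM in IVF males and 326 to 391 in IVF females, with 9 of 10 below 0, 5 at an unadjusted p under 0.05 and 0 called. Below 0 too were 5 of 6 cholangiocyte (bile duct cell) markers and 6 of 8 lymphocyte and granulocyte markers (median log2 fold change -0.11 and -0.90). None of these was called. The 3 tested adipocyte markers lay above 0 (median 0.77), and 1, Cidec, was called. All 10 Kupffer markers correlated positively with Ahsg and with Lect2 over the 12 libraries (median r 0.52 and 0.43, against -0.02 for all genes with each). So did 9 of 10 endothelial markers with Ahsg (median r 0.55) and 8 of 10 with Lect2 (0.45). Of 11 hepatocyte markers 4 were positive with Ahsg and 5 with Lect2 (median r -0.12 and -0.02). Group means were left in, so these r values partly repeat the low levels in IVF males. The part of other cell types in the levels of Lect2 and Ahsg was not tested. In bulk tissue, fewer cells of a type and less RNA per cell cannot be told apart.

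Acute phase genes, which liver transcribes in inflammation, ran with several members. Of 27 such genes, 24 correlated positively with Ahsg (median r 0.51) and 24 with Fetub (median r 0.37), where 48.5% and 48.4% of all genes did. The other 3 were negative with each, and Saa1 was the lowest, at -0.20 with Ahsg and -0.03 with Fetub. With Angptl8 and with Rbp4 25 of 27 were positive (median r 0.34 and 0.32), and with Lect2 20 of 27 (0.23). With Fgf21 27 of 27 were negative (median r -0.33), with Igfbp1 25 of 27 (-0.43) and with Angptl4 22 of 27 (-0.27). With Igfbp2 11 were positive and 16 negative (-0.06). In IVF females against natural females 23 of 27 lay above 0, with a median log2 fold change of 0.30 against -0.01 for all genes. There 1 had an unadjusted edgeR p under 0.05 and 0 were called. In IVF males against natural males all 27 lay below 0, with a median of -0.98 against 0.01 for all genes. In that comparison 13 had an unadjusted edgeR p under 0.05 but 0 were called. Their summed CPM ran from 34578 to 48432 in IVF males and from 40100 to 103725 in natural males, where the value of replicate 1, 40100, lay within the range of the IVF males. Correlations within a library share its depth and scaling, and the part of these genes in the levels of the members was not tested.

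**Figure D3:**
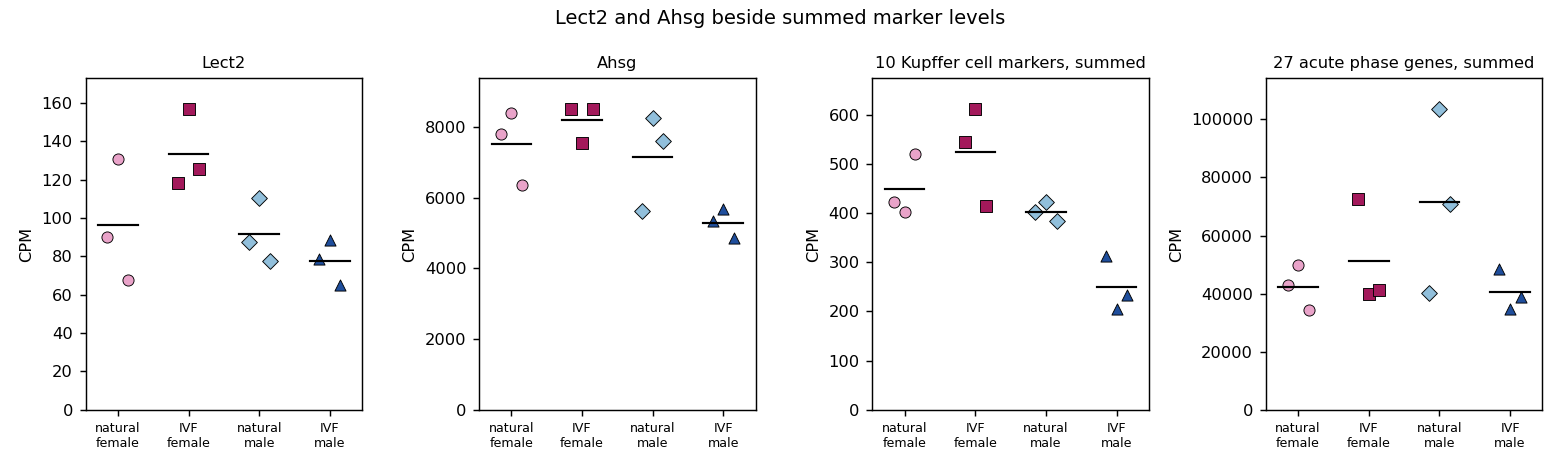
CPM of Lect2 and Ahsg and summed CPM of 10 Kupffer cell markers and 27 acute phase genes in every library, on linear axes from 0; symbols are mice and bars are means of 3. The IVF males are the lowest group for Kupffer markers (206 to 312) and lie below the IVF females for Lect2 and Ahsg, while the acute phase sum overlaps between groups.

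The members split into a variable and a steady set. The SD of log2 CPM between mice of a group was 1.76 for Igfbp1, 1.60 for Fgf21, 1.06 for Angptl8 and 0.94 for Angptl4, above that of 99.6%, 99.4%, 96.9% and 94.9% of tested genes. For Igfbp2 it was 0.47, and for Lect2, Fetub and Rbp4 it was 0.31, 0.29 and 0.28, around or below the median gene at 0.38. For Ahsg it was 0.19, and only 12.3% of genes had a smaller one. The highest library exceeded the lowest 38.9-fold for Fgf21, 33.2-fold for Igfbp1, 11.4-fold for Angptl4 and 7.38-fold for Angptl8, but 1.80-fold for Rbp4 and Fetub and 1.76-fold for Ahsg.

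**Figure D4:**
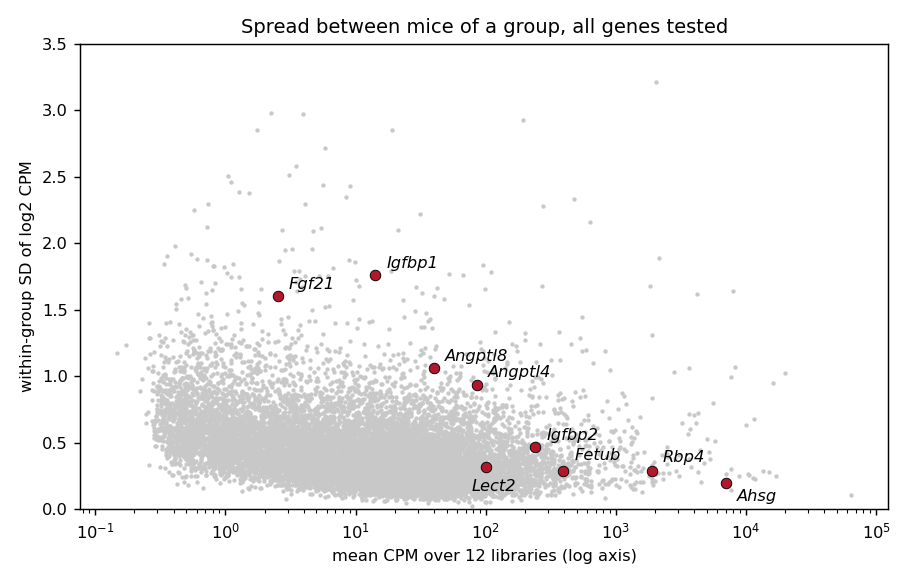
SD of log2 CPM between mice of a group (pooled over the 4 groups) against mean CPM over 12 libraries on a log axis; each grey dot is 1 of 13204 tested genes and red dots are the 9 members. Igfbp1, Fgf21, Angptl8 and Angptl4 lie in the upper edge of the cloud, Ahsg near its floor.

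Within the variable set, mice high in Igfbp1 tended to be high in Angptl4 and low in Angptl8. Fgf21, the other gene of that set, was less clearly related to them. Its Pearson r was 0.30 with Igfbp1, 0.30 with Angptl4 and -0.30 with Angptl8 (permutation p 0.333, 0.351 and 0.333). With Igfbp1 it was 0.91 in females and 0.09 in males, and with Angptl4 0.86 and -0.15. Over 12 libraries, log2 CPM of Igfbp1 and Angptl4 had a Pearson r of 0.69 (permutation p 0.0127) and a Spearman rho of 0.73 (permutation p 0.0103). Adjusted over all 36 pairs of members, the permutation p of this pair was 0.0761 by r and 0.106 by rho. By sex, r was 0.918 in the 6 females (exact permutation p 0.00694) and 0.926 in the 6 males (exact permutation p 0.00139). These are parts of the same 12 libraries and give no separate support. After the group means were taken out, r was 0.92. Without the mice farthest from the median of Igfbp1, IVF male replicate 3 and natural male replicate 1, r was 0.56, and without both libraries of smallest total it was 0.75. Exact p-values within each sex were computed only for the pairs among Igfbp1, Angptl4 and Angptl8, and were not adjusted.

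Angptl8 ran against both. Its r with Igfbp1 was -0.71 (permutation p 0.0105; rho -0.62, permutation p 0.0373), and -0.58 without the 2 farthest mice. By sex it was -0.89 in males (exact permutation p 0.0167) and -0.51 in females (exact permutation p 0.308). With Angptl4 it was -0.73 (permutation p 0.00641; rho -0.65, permutation p 0.0258), and -0.75 in females and -0.76 in males (exact permutation p 0.0903 and 0.0653). It dropped to -0.45 without IVF female replicate 1 and natural male replicate 1, so that much of this relation rests on those 2 mice, and was -0.63 without both libraries of smallest total. Only 0.523% of 13203 other genes had a lower r with Angptl8 than Angptl4 had, and 0.750% a lower one than Igfbp1. Seen from the other genes the pairs stood out less: 5.36% of genes had a lower r with Angptl4 than Angptl8 had, and 1.28% a lower r with Igfbp1. For Igfbp1 and Angptl4, 98.4% of genes had a lower r with Igfbp1 than Angptl4 had, and 90.3% a lower r with Angptl4 than Igfbp1 had. The ratio of Angptl4 to Angptl8 CPM ran from 0.272 in IVF female replicate 1 to 23.0 in natural male replicate 1.

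Of the 36 pairs of members, 0 passed a Benjamini-Hochberg adjustment by Pearson r (lowest adjusted permutation p 0.0761, over 36 pairs). By Spearman rho 2 passed, each at an adjusted permutation p of 0.0367: Fgf21 with Fetub at a rho of -0.82 (r -0.79) and Fetub with Ahsg at 0.81 (r 0.77). Without the 2 farthest mice r was -0.78 and 0.82, and without both libraries of smallest total -0.71 and 0.71. In females Fetub and Ahsg had an r of 0.99 and in males of 0.73, and Fgf21 and Fetub of -0.76 and -0.89.

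**Figure D5:**
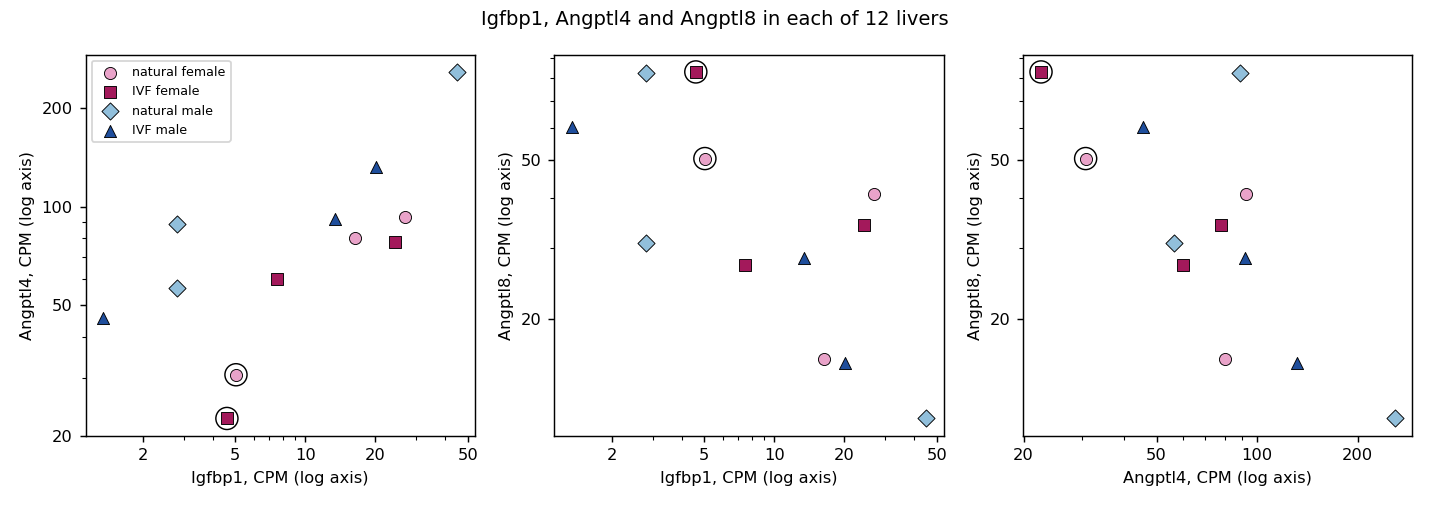
Angptl4 against Igfbp1, Angptl8 against Igfbp1 and Angptl8 against Angptl4, in CPM on log axes, with 1 symbol for each of 12 mice and circles around the 2 libraries of smallest total. Igfbp1 and Angptl4 run together (r 0.69) and Angptl8 runs against both (r -0.71 and -0.73), with natural male replicate 1 at 1 end.

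Targets of the pathways that control these genes were set beside them, as a description over 12 libraries that share depth and scaling. Of 16 FOXO1 and glucagon targets, 15 correlated positively with Igfbp1 (median r 0.29, where 51.4% of all genes were positive). Irs2, the insulin receptor substrate of fasted liver, was highest at 0.67. With Angptl4 13 of 16 were positive (median r 0.35, where 51.8% of all genes were), and with Angptl8 12 of 16 were negative. Of 19 PPAR-alpha and fasting targets, 16 were positive with Fgf21 (median r 0.37, all genes 52.6%) and 16 with Igfbp1 (median r 0.28). With Angptl4 12 were positive (median r 0.25), and with Angptl8 15 were negative (median r -0.35). Ppara itself had an r of 0.92 with Angptl4, 0.73 with Igfbp1, 0.50 with Fgf21 and -0.76 with Angptl8. Of 20 targets of insulin, SREBP-1c and ChREBP, 10 were positive and 10 negative with Angptl8, and 17 were positive with Angptl4, led by Txnip at 0.80. Of 19 genes of the integrated stress response, the ATF4 programme, 15 were positive with Fgf21 and 13 with Angptl4 (median r 0.23 with each). Sesn2 had an r of 0.95 with Angptl4.

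These lists gave no call for IVF in females or in males. In females 17 of 20 insulin targets lay above 0 (median log2 fold change 0.27; all genes -0.01) and 13 of 19 PPAR-alpha targets below (median -0.15). In males 13 of 19 PPAR-alpha targets lay above 0 (median 0.16; all genes 0.01) and 13 of 16 FOXO1 targets below (median -0.26). For the difference of the IVF effect between the sexes, 17 of 19 PPAR-alpha targets lay above 0, at a median of 0.40 against 0.03 for all genes, and 0 were called.

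Several genes of these lists did differ between the sexes at an edgeR adjusted p under 0.05, averaged over both modes of conception, where 7.2% of all genes were called. In the IGF axis Igfbp3, the main carrier of IGF1 in blood, was lower in males (log2 fold change -0.81, edgeR adjusted p 0.0242) and Igf2r was higher (0.51, 0.0455), 2 of 13 tested. In the lipase list 1 of 12 was called: Lipc, hepatic lipase, was lower in males (-0.80, edgeR adjusted p 0.0156). Of 10 retinol genes 2 were lower in males, Lrat, which esterifies retinol (-0.83, edgeR adjusted p 0.0487), and Pnpla3 (-2.72, 0.029). Of 23 other hepatokines 3 were higher in males: Serpina12, or vaspin (3.30, edgeR adjusted p 0.000248), Tsku, or tsukushi (2.88, 0.000724), and Clu, or clusterin (0.55, 0.0454). The first 2 were called within each mode of conception too, where none of the 9 members was. Of 11 FGF21 regulators, Ppargc1a was lower in males (-1.40, edgeR adjusted p 0.0475).

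Ahsg and Fetub stand in a row of cystatin-type genes on chromosome 16, followed by Hrg (22951072-22961656), Kng2 (22985854-23029482) and Kng1 (23057865-23082078), which encode histidine-rich glycoprotein and kininogens. The tested list of that family held these genes and Cst3, which lies on chromosome 2. In it, 4 of 4 tested genes correlated positively with Ahsg (median r 0.72), Kng1 highest at 0.75, and 3 of 4 with Fetub, again with Kng1 highest at 0.76. Cst3 was the lowest with both, at 0.13 with Ahsg and -0.09 with Fetub. In IVF males against IVF females all 4 lay below 0 (median log2 fold change -0.69; all genes 0.01), but 0 were called.

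Genes whose log2 CPM ran most like a member over the 12 libraries, out of 11812 with a mean of at least 1 CPM, were Ypel5 (r 0.97) and Dnmbp (0.96) for Angptl4, Ppp1ca (0.96) and Cep68 (0.94) for Igfbp2, and Tmprss2 (0.94) and Pld1 (0.90) for Ahsg. For Igfbp1 they were Btg1 (0.90) and Itprip (0.89), for Fgf21 Pmm1 (0.85) and Pex13 (0.83), and for Angptl8 Acot11 (0.89) and Sf3a1 (0.86). For Lect2 they were Pik3ap1 (0.92) and Itih2 (0.88), for Fetub Hsd17b2 (0.93) and Borcs8 (0.92), and for Rbp4 Tm2d3 (0.90). Without both libraries of smallest total the values of the genes named here lay between 0.81 and 0.95. They are among the highest over all those genes and carry no test.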

How the data were processed

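Messenger RNA libraries (poly-A selection, KAPA kit, NextSeq, per the labels' protocols) from 12 livers were used as the authors deposited them, as 1 table of whole-number counts per gene symbol. The submitters' processing notes name Trimmomatic 0.32, STAR 2.3.0e, featureCounts 1.5.0 and mm10. Annotation, strand setting and handling of multiply matching reads are not given in the sources used here. Columns were matched to samples by title and groups came from the labels. The members and gene lists were chosen with earlier results of these data known. Counts were fitted with edgeR 4.0.16 in R 4.3.3 (filterByExpr, TMM, quasi-likelihood test, a mean for each of 4 groups over all 12 libraries), and p-values were adjusted by Benjamini-Hochberg over 13204 genes. Standard errors are the log2 fold change over the root of F, and 95% intervals use the model's degrees of freedom. Log2 CPM used a prior count of 2, and correlations between members used 100000 permutations. Of each pathway list the text names genes called in a comparison, at most 3 of smallest p, or else the gene of smallest p; the 2 most similar genes were taken by Pearson r, of which 1 is not reported here. A few genes that are highest or lowest in a list by r, Ppara, Txnip, Irs2, Sesn2, Kng1, Cst3 and Saa1, were named after their values were seen. Positions and exon lengths are from GENCODE M21 (GRCm38), promoters from RefSeq (GRCm38.p6, 8 of 9 members). Alternatives were other size factors, library size alone, no filter, a floor of 1 on the mean CPM, DESeq2 1.42.0, voom in limma 3.58.1, fits to the groups compared, a covariate for the 2 smallest libraries, no Rn45s, and each library left out. The model's behaviour on simulated data is not reported here. At the smallest library 3 counts correspond to 0.439 CPM. Confidence intervals of fits cover these libraries' spread, and no 2 libraries of a group differed by sampling noise alone (smallest chi-square per degree of freedom 80.7).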

Additional observations from a re-analysis of the deposited data

How the results depend on the processing

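With 3 libraries a group, changes of the variable genes below several-fold could not be told from no change, and for Fgf21 counts of 2 to 129 a library limit the precision further. No paired analysis was possible because the replicate numbers here follow accession order and pair no samples. The titles of IVF female replicate 1 and IVF male replicate 2 share the first part of their number, whose meaning the labels do not give. The number of members called was 0 in all 84 counts (12 fits with a library left out, 7 comparisons) and matched the reported count in 64 of 67 others. The exceptions were 2 members by library size alone and 1 by DESeq2 for the average sex difference, and 1 by DESeq2 in IVF males against IVF females. Of 468 log2 fold changes under the other settings, 443 kept direction and call, 4 gained a call (those of Lect2 and Ahsg given with the sex comparisons) and 21, all of results not called, changed sign; the cause was not tested. For males against females after natural conception, library size alone gave Igfbp1 -0.29, Angptl8 -0.084, Fetub -0.29 and Rbp4 -0.18, voom gave Igfbp1 -1.02 and Angptl8 -0.016, and Fetub was -0.0024 with a mean of at least 1 CPM, -0.012 with only the libraries compared and -0.00044 without Rn45s. With the covariate for the 2 libraries of smallest total, Igfbp1 was -0.32 and Lect2 0.048 in that comparison, Angptl8 0.075 and Rbp4 0.18 between the sexes after IVF, and Fgf21 -0.071 for the average sex difference. Without both of those libraries, Rbp4 was 0.086 in IVF against natural females, Igfbp1 -0.38, Lect2 0.21 and Ahsg 0.0043 between the sexes after natural conception, Angptl8 0.14 and Rbp4 0.092 after IVF, and Fgf21 -0.094 for the average. Leaving out single libraries changed the sign of 37 of 576 log2 fold changes, again with no call. For the difference of the IVF effect, the average IVF effect and the average sex difference, the 468 and 576 values cover Fgf21, Angptl4, Lect2 and Ahsg alone. Changes of sign of the other members in those comparisons are not reported here. In IVF against natural females the log2 fold change then ranged over Fgf21 -1.11 to 1.23, Igfbp1 -1.39 to 0.22, Igfbp2 -0.53 to 0.060, Angptl4 -0.71 to 0.037, Angptl8 -0.19 to 0.75 and Rbp4 -0.22 to 0.21. In IVF against natural males the log2 fold change then ranged over Igfbp1 -1.20 to 2.05, Angptl4 -0.97 to 0.31, Angptl8 -0.93 to 0.72 and Fetub -0.29 to 0.0077. For the difference of the IVF effect the log2 fold change then ranged over Angptl4 -0.63 to 0.65. In males against females after natural conception the log2 fold change then ranged over Fgf21 -1.13 to 0.40, Igfbp1 -2.53 to 0.62, Igfbp2 -0.43 to 0.021, Angptl8 -0.75 to 0.68, Lect2 -0.26 to 0.22, Fetub -0.17 to 0.16, Ahsg -0.20 to 0.079 and Rbp4 -0.054 to 0.40. In males against females after IVF the log2 fold change then ranged over Igfbp1 -0.76 to 0.91, Angptl8 -1.13 to 0.14 and Rbp4 -0.13 to 0.092. For the average sex difference the log2 fold change then ranged over Fgf21 -0.092 to 1.09.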

Other observations

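The ratio of Ahsg to Fetub CPM ran from 14.0 to 16.3 in IVF males, 16.8 to 20.1 in IVF females, 16.5 to 20.8 in natural males and 18.3 to 22.6 in natural females. The 3 IVF males thus had the lowest ratios of the 12 mice, a pattern noticed in the data and not tested. The ratio of Igfbp2 to Igfbp1 CPM ran from 4.88 in natural male replicate 1 to 109 in IVF male replicate 3.

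Some genes of the lists set beside Fgf21 were called between the sexes, in both directions, in a comparison where 7.2% of all genes were called; no enrichment was tested. Of 19 genes of the integrated stress response, 4 were called by edgeR for the average sex difference: Asns, asparagine synthetase (log2 fold change 4.09, edgeR adjusted p 0.00449), Psph (0.69, 0.0317) and Cebpb (1.30, 0.0434) were higher in males and Vldlr, the very low density lipoprotein receptor (-3.63, 0.00018), was lower. Of 19 PPAR-alpha and fasting targets, Cidec, a lipid droplet protein (1.26, edgeR adjusted p 0.0279), and Acsl1, which activates fatty acids (0.92, 0.015), were higher in males and Cyp4a10, a fatty acid hydroxylase (-3.09, 0.0175), was lower. Fgf21 itself stood at 0.30 ± 0.72 (SE) in that comparison, with an edgeR adjusted p of 0.832.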
